A study of Mus musculus with 10 samples.

Results

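The 8 genes described here code for enzymes and regulators of cholesterol synthesis: Hmgcs1, Sqle, Idi1, Lss, Fdft1, Insig1, Srebf2 and Dhcr7. The rule lists them by name and uses no measured value, although they were proposed with earlier results of these data known, and they are 8 of the 31053 genes in the count matrices. Their UMI counts (unique molecular identifiers, each standing for 1 captured transcript) were read per annotated cell class and library in 10 droplet single-cell libraries of mouse intestine, 8 of small-intestinal organoids and 2 of colonic crypts. All 8 genes passed the filter on low counts in every fit.

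Organoids are epithelial cultures grown in Matrigel from crypts of the proximal small intestine. The 3 ENR-organoid libraries came from medium with EGF (50 ng/mL), Noggin (100 ng/mL) and R-Spondin 1. The 3 Hyper-organoid libraries came from medium that also held EGF and R-Spondin 1, the latter as conditioned medium where ENR had the protein itself. It further held the BMP receptor inhibitor LDN193189 (0.2 μM), GSK-3 Inhibitor XV (0.1 μM), Pexmetinib (1 μM), FGF2 (20 ng/mL), the histone deacetylase inhibitor valproic acid (VPA, 500 μM) and the EZH2 inhibitor EPZ6438 (2 μM). The 2 -VE-organoid libraries came from that medium without VPA and EPZ6438. As described, Hyper and -VE media differ in those 2 compounds, whereas ENR differs from both in several components at once. The methods also recommend knockout serum replacement for Hyper-organoids after passage. The labels do not say which of these libraries received it. Crypts came from mice of 6 to 12 weeks. Replicates 1, 2 and 3 are called culture series 2, 6 and C here, after the prefix of the library names. The labels do not say what the prefix stands for, or whether series 2 and 6 are separate cultures. In series C the labels give primary crypts as the origin of both the ENR- and the Hyper-organoids, whereas in series 2 and 6 the -VE- and Hyper-organoids were switched over from ENR-organoids. ENR-organoids were at passage 2, 7 and 3, -VE-organoids at passage 1 and 6, and Hyper-organoids at passage 1, 6 and 3. Within a medium each series has its own passage, so series and passage cannot be told apart. The colonic libraries came from crypts of 8-week mice, 1 normal and 1 treated with dextran sulfate sodium (DSS), an agent that injures the colonic epithelium, and were not replicated. The methods give 2.5% DSS for 5 days and then normal drinking water. The day on which these crypts were taken is not stated.

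Cholesterol is built from acetyl-CoA through the mevalonate pathway. Hmgcs1 makes HMG-CoA, the precursor of mevalonate. Idi1 interconverts the 5-carbon isoprene units. Fdft1 joins farnesyl units into squalene, Sqle oxidises squalene, Lss closes the sterol rings, and Dhcr7 acts in the last steps before cholesterol. Srebf2 codes for SREBP2, the membrane-bound transcription factor that is cleaved when sterols are scarce and then raises transcription of these enzymes. Insig1 holds that factor in the endoplasmic reticulum when sterols are plentiful and is itself a target of it. In the intestine the epithelium both makes cholesterol and absorbs it from the lumen.

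The genes lie apart in the genome (GRCm38, GENCODE M21). Hmgcs1 is at chr13:119690379-119708260 and Idi1 at chr13:8885501-8892451. Sqle is at chr15:59315077-59331192 and Srebf2 at chr15:82147181-82205379. Lss is at chr10:76531588-76557138, Insig1 at chr5:28071363-28078662 and Dhcr7 at chr7:143823145-143848410. These 7 genes are on the plus strand, and Fdft1 is on the minus strand at chr14:63145150-63179578.

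The promoters of the members were read from RefSeq start sites (GRCm38.p6), where 6 of the 8 had an entry. A window was the 250 bases before a start. The sterol response element was searched on both strands as CACNCCAC and as TCACNCCA, which overlap by 7 letters where they share a site, and the CCAAT box, bound by NF-Y, as CCAAT. The second sterol form was chosen after the windows were seen. CACNCCAC was present before Hmgcs1 and Insig1, and TCACNCCA before Hmgcs1 and Srebf2. Each form was present before 1 of 12 other cholesterol synthesis enzymes with an entry. Of 32851 windows, 5.29% held the first form and 3.67% the second. CCAAT was present in a window of 6 of 6 members and of 11 of these 12 enzymes, against 33.8% of all windows. The GC box, a common promoter motif searched as GGGCGG, had the same counts, 6 of 6 and 11 of 12, against 32.7% of all windows. The E-box CACGTG was before 2 of 6 and 2 of 12, against 6.02%. A gene with several starts counted if any of its windows held a match, whereas the percentages are shares of single windows. Dhcr7 has 3 listed starts. Its CCAAT matches were before start 3 alone, inside the gene at chr7:143829964-143830213, and its E-box was before start 2 alone. The stretches below are shown for the entry enzyme of the pathway, for its transcription factor and for the feedback regulator, in genome order on the plus strand, with sterol-element and CCAAT matches in capitals, and they stop before the first annotated exon. Hmgcs1 covers chr13:119690101-119690350, Srebf2 covers chr15:82147019-82147180 and Insig1 covers chr5:28071162-28071362. The Insig1 sterol match starts 9 bases before the RefSeq start and lies outside the stretch shown.
Hmgcs1: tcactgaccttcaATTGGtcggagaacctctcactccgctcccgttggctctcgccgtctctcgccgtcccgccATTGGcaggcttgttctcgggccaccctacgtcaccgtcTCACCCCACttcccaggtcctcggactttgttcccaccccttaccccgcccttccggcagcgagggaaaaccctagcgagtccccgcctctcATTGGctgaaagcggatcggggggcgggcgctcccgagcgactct
Srebf2: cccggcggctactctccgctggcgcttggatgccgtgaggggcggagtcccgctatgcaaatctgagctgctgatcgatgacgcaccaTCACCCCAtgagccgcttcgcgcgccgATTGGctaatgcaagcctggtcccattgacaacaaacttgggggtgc
Insig1: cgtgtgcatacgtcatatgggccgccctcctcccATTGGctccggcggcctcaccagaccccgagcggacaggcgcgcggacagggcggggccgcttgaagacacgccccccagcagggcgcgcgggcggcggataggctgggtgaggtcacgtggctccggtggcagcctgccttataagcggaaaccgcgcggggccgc
A match is a description of the letters and was not tested for binding. In the Hmgcs1 stretch, the capitals of the sterol element merge TCACNCCA, 137 bases before the start, with CACNCCAC at 136 bases. They lie between CCAAT matches at 176 and 45 bases.

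The organoid libraries held 89124015 to 170019527 UMIs in 1983 to 4293 kept cells, and the colonic libraries 19906845 (normal) and 32397122 (DSS) UMIs. The members took 0.108% to 0.133% of all organoid UMIs, 97497 to 198154 UMIs per library. Leukocyte markers summed to at most 0.862 CPM (UMIs per 1000000 UMIs) and the 7 stromal markers to 0.359 to 0.545 CPM in ENR, 0.365 to 0.493 CPM in -VE and 0.964 to 1.44 CPM in Hyper, beside at least 2609 CPM of the epithelial markers Epcam, Krt8 and Cdh1. Of the 3 stromal markers tested, Col1a1 and Pdgfra rose in Hyper against both other media in edgeR, each staying under 1 CPM, and 1 of 3 leukocyte markers tested fell against both. Their part in the members' changes was not tested. The annotation also holds revival stem cells (at most 1.31% of cells in a library, and 0 in ENR) and cells labelled TC (at most 0.269%), which stayed under 30 cells in every organoid library and were not analysed as classes. Of the 27 markers of the other 7 annotated classes, 23 were highest in their own class. The exceptions were Cd44 (highest in transit-amplifying instead of stem cells), Cfhr2 (in enterocytes instead of their progenitors) and the goblet markers Tff3 and Muc2 (in Paneth cells). Any pair of libraries shared at most 5 barcodes of kept cells. Replicate libraries are separate samples in the labels, with no statement that they came from separate animals or separate cultures. The p-values therefore measure the spread between these libraries, which may be in part technical.

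Over all kept cells, most members were lower in Hyper- than in ENR-organoids, by a modest amount. In all, 6 of the 8, Hmgcs1, Sqle, Idi1, Fdft1, Insig1 and Srebf2, fell and passed the test (edgeR quasi-likelihood, Benjamini-Hochberg adjusted p under 0.05, called the threshold below), none rose past it, and 0 of them also changed by 2-fold. The summed level of the 8 was 1329, 1366 and 1282 CPM (TMM-scaled) in the ENR libraries and 1100, 1082 and 1028 CPM in the Hyper libraries, with no overlap, and 1245 and 1206 CPM in the -VE libraries, in between on this scale. As a plain share of UMIs, -VE (0.119% and 0.117%) met Hyper (0.117%, 0.115% and 0.108%), beside 0.132%, 0.133% and 0.120% in ENR. Across the transcriptome 56.8% of 16037 genes passed in this comparison, 27.3% as lower and 29.5% as higher, 22.9% were also at least 2-fold apart, and the median log2 change was -0.007 against -0.32 for the members. The 6 that fell were also those whose Hyper libraries all lay below the ENR libraries, as did 31.6% of all genes tested.

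Among the regulators, Srebf2 was at 90.2, 92.9 and 85.9 CPM in ENR, 82.3 and 93.1 CPM in -VE and 74.3, 72.9 and 68.7 CPM in Hyper. The Hyper libraries were the lowest of all 8. Srebf2 fell by 0.32 on the log2 scale against ENR (SE 0.06, adjusted p = 0.00292 in edgeR). Insig1 was at 207, 209 and 215 CPM in ENR, 177 and 155 CPM in -VE and 166, 147 and 144 CPM in Hyper. The ENR libraries stood above the rest, while -VE and Hyper overlapped. The Insig1 change was -0.46 against ENR (SE 0.07, adjusted p = 0.000861 in edgeR).

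Among the early enzymes, Idi1 had the largest fall of the members. It was at 282, 290 and 238 CPM in ENR, 276 and 274 CPM in -VE and 211, 191 and 179 CPM in Hyper. Its level in Hyper was below that in every other library, and it changed by -0.48 against ENR (SE 0.09, adjusted p = 0.00213 in edgeR). Hmgcs1, at the entry to the pathway, was at 323, 330 and 315 CPM in ENR, 282 and 261 CPM in -VE and 263, 282 and 294 CPM in Hyper. Both other media were below ENR and overlapped each other. The Hmgcs1 change against ENR was the smallest that passed, at -0.21 (SE 0.06, adjusted p = 0.0152 in edgeR), and it was lost without ENR replicate 2 (adjusted p = 0.0586 in edgeR) and with cells thinned to 10000 UMIs (-0.18, adjusted p = 0.0530).

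In the squalene steps, Sqle was at 144, 149 and 147 CPM in ENR, 138 and 141 CPM in -VE and 117, 122 and 116 CPM in Hyper. The replicates were tight and the Hyper libraries stood apart, with a change of -0.31 against ENR (SE 0.04, adjusted p = 0.000494 in edgeR). Fdft1 was at 120, 131 and 130 CPM in ENR, 119 and 123 CPM in -VE and 94.1, 106 and 96.1 CPM in Hyper. It changed by -0.36 (SE 0.06, adjusted p = 0.00150 in edgeR), again with every Hyper library below every other. Lss was at 72.9, 71.0 and 60.7 CPM in ENR, 70.3 and 64.4 CPM in -VE and 63.6, 56.3 and 44.0 CPM in Hyper. The ENR and Hyper ranges overlapped, and the change of -0.32 missed the threshold (SE 0.13, adjusted p = 0.0676 in edgeR). In each medium with 3 libraries, series C was the lowest for Lss, and when culture series was a block in the fit the change of -0.33 passed (adjusted p = 0.00221). It also passed without Hyper replicate 1 (-0.44, adjusted p = 0.0172 in edgeR), with all barcodes (-0.42, adjusted p = 0.0155) and with DESeq2 (-0.30, adjusted p = 0.0435).

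Dhcr7, which acts last, was the exception. It was at 90.0, 93.8 and 89.9 CPM in ENR, 99.6 and 94.7 CPM in -VE and 111, 104 and 86.7 CPM in Hyper. Its ranges in ENR and Hyper overlapped (log2 change 0.14, SE 0.09, adjusted p = 0.197 in edgeR), and Hyper replicate 3 was the lowest library of all. Without that library the change was 0.24 (adjusted p = 0.00794 in edgeR).

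**Figure D1:**
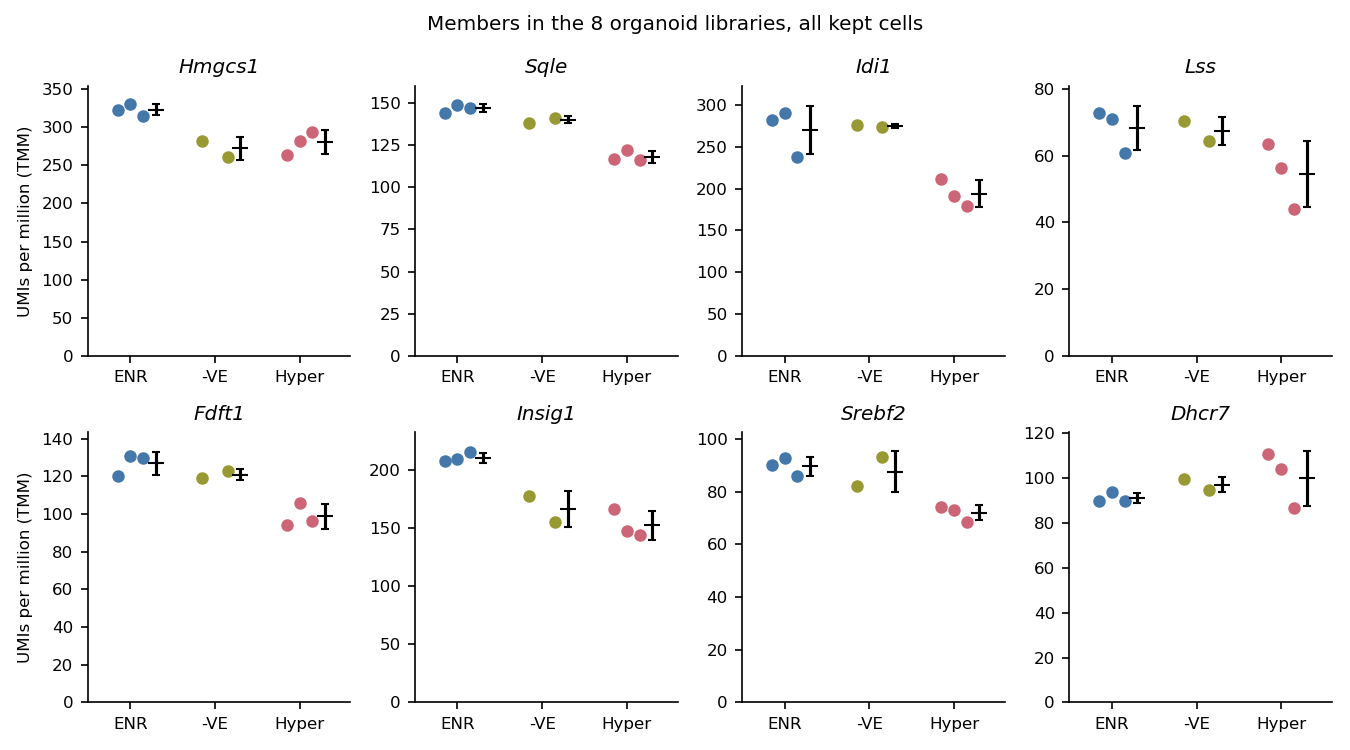
Level of each member in CPM, scaled by TMM, in the 8 organoid libraries, with 1 panel per gene and a linear axis from 0. Coloured points are libraries, the black bars are the group mean ± SD (n = 3, 2 and 3), and the Hyper points lie below all ENR points for every gene except Lss and Dhcr7.

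Classes of cells differed in share between the media, and in sums over all cells a change in the share of a class and a change of RNA within cells cannot be told apart. Stem cells made up 9.75% to 14.7% of kept cells in ENR, 24.3% to 28.2% in -VE and 40.0% to 44.1% in Hyper. Enterocyte progenitors made up 22.2% to 34.5% in ENR and 0.0852% to 0.107% in Hyper, and enterocytes 9.78% to 13.1% and 0.249% to 1.65%. Their part in the result over all cells was not tested, and the members' levels within classes are given further on. Scaling by total UMIs alone, without TMM factors, moved the median of all genes by over 0.1, to 0.12 in this comparison and to 0.15 against -VE. On that scale 5 members passed against ENR, with Hmgcs1 (-0.08) and Srebf2 (-0.19) no longer past the threshold and Dhcr7 past it as higher (0.27). Over all 16037 genes tested, 5704 then passed as higher and 2749 as lower.

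The comparison of Hyper with -VE asks what VPA and EPZ6438 added to the medium. Series C, from primary crypts, has a Hyper but no -VE library, so series and origin are not balanced between the groups. In edgeR 4 members fell, Sqle, Idi1, Fdft1 and Srebf2, and the other 4 did not pass (47.6% of all genes tested passed, 22.6% as lower). Idi1 changed by -0.50 (SE 0.10, adjusted p = 0.00392 in edgeR), Fdft1 by -0.29 (SE 0.07, adjusted p = 0.00971) and Srebf2 by -0.29 (SE 0.07, adjusted p = 0.0108). Sqle changed by -0.24 (SE 0.05, adjusted p = 0.00469 in edgeR). When culture series was a block, Idi1 was at -0.43, Fdft1 at -0.29, Srebf2 at -0.25 and Sqle at -0.23, and all 4 passed. These 4 genes and Lss were lower in all 3 Hyper libraries than in both -VE libraries, as were 32.9% of all genes tested. Hmgcs1 and Insig1, which were lower in Hyper than in ENR, were at 0.04 (SE 0.06) and -0.13 (SE 0.08) here. Lss had a wide error (-0.30, SE 0.15, adjusted p = 0.124 in edgeR), and it passed when culture series was a block (-0.20, adjusted p = 0.0369) and without Hyper replicate 1 (-0.42, adjusted p = 0.0337). The count rests on -VE replicate 2, without which the group holds 1 library, and on TMM scaling. With any 1 library left out, Idi1 lay between -0.57 and -0.45. Without TMM factors 1 member passed and Insig1 was at 0.01. Over all genes tested, 1740 of 16037 then passed as lower, beside 3618 with TMM factors.

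The comparison of -VE with ENR covers the change of medium without the 2 compounds, and here too series C has no -VE library. Insig1 was the member that passed, at -0.34 (SE 0.08, adjusted p = 0.0436 in edgeR), where 7.88% of all genes tested passed, 3.62% as lower. Hmgcs1 was close to the threshold at -0.25 (SE 0.06, adjusted p = 0.0566), with both -VE libraries below the 3 ENR libraries, as were those of 21.9% of all genes tested. It passed without Hyper replicate 1 (adjusted p = 0.0376) or Hyper replicate 3 (adjusted p = 0.0486), libraries that enter this comparison through the shared estimate of the spread, and in those fits 2 members passed. Hmgcs1 also passed with DESeq2 (adjusted p = 0.00536), with only the groups compared (adjusted p = 0.0460 in edgeR) and with all barcodes (adjusted p = 0.0238). The other 6 members lay between -0.07 and 0.09. The Insig1 call was lost when any 1 ENR or -VE library, or Hyper replicate 2, was left out (adjusted p from 0.0585 to 0.258). All 3 comparisons share libraries and are not independent of each other.

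Over all cells the other enzymes of the pathway moved in the same direction. Of 15 further cholesterol synthesis enzymes, 12 fell in Hyper- against ENR-organoids (27.3% of all genes tested fell), 0 rose past the threshold, and all 15 had a negative change, with a median of -0.36. Among them were Ebp, a sterol isomerase (-0.67, SE 0.09), Lbr (-0.58, SE 0.06), Mvd (-0.53, SE 0.08), Sc5d (-0.51, SE 0.05) and Mvk (-0.45, SE 0.06). Cyp51 (-0.36), Pmvk (-0.35), Acat2 (-0.27), Hsd17b7 (-0.27) and Msmo1 (-0.24) also passed. Against -VE, 11 of the 15 fell (22.6% of all genes tested), led by Mvd (-0.67, SE 0.09), Tm7sf2 (-0.57, SE 0.18), Ebp (-0.55, SE 0.10) and Lbr (-0.47, SE 0.07). Without -VE replicate 1, 7 of the 15 passed. Between -VE and ENR, 0 of the 15 passed in edgeR (7.88% of all genes tested), and 4 had an unadjusted p under 0.05 (3847 of 16037 genes). In DESeq2, 3 passed, where 2233 of 16037 genes did. Within classes fewer of the 15 passed as lower in Hyper against ENR, in sums over fewer cells. In stem cells 4 fell (23.4% of all genes tested), with a median of -0.10. In transit-amplifying cells 10 fell (26.6%), in goblet cells 8 (12.8%) and in enteroendocrine cells 1 (5.28%), with medians of -0.29, -0.30 and -0.12. Against -VE, 7 fell in stem cells (20.3%), 10 in transit-amplifying cells (21.9%) and 9 in goblet cells (7.09%). Their medians were -0.20, -0.37 and -0.38. In enteroendocrine cells 0 passed against -VE (5.10% of all genes tested). In both comparisons 0 rose past the threshold in any of these classes.

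**Figure D2:**
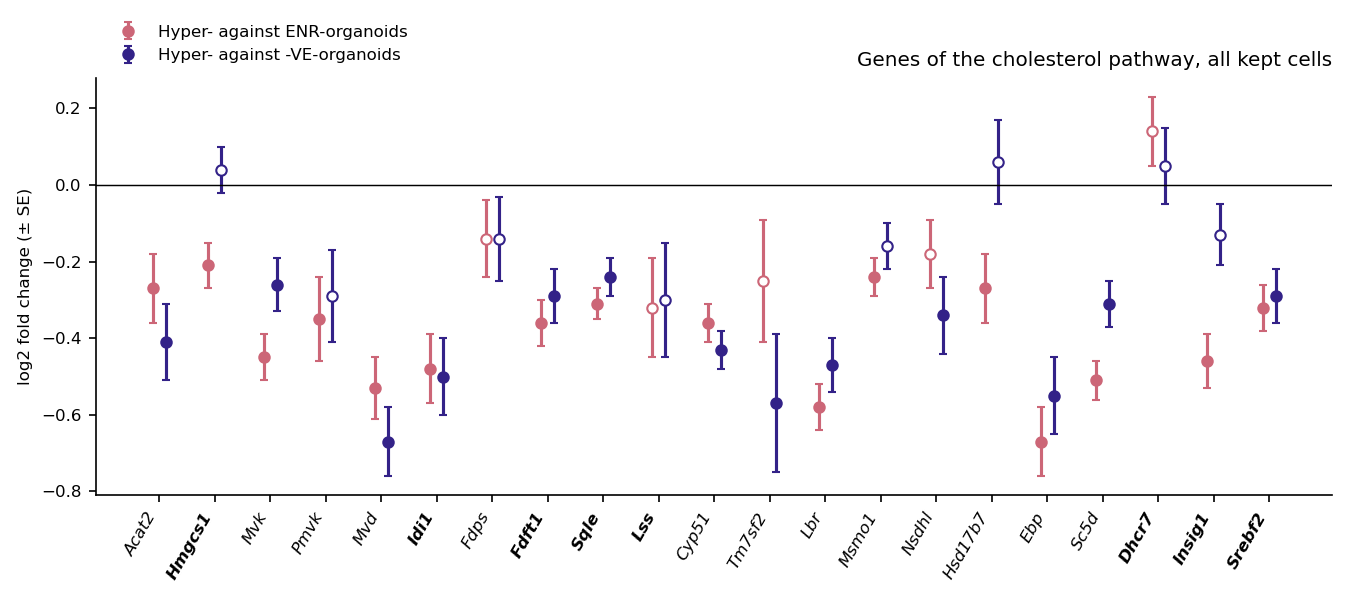
Log2 fold change with SE of cholesterol enzymes in the order of the pathway, then Insig1 and Srebf2, over all kept cells, for Hyper against ENR and for Hyper against -VE, with members in bold. Filled points passed the threshold and open points did not. All but Hmgcs1 and Hsd17b7 against -VE and Dhcr7 in both comparisons lie below 0.

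Of 11 genes of sterol sensing and uptake, 3 fell and 2 rose in Hyper- against ENR-organoids, beside 27.3% lower and 29.5% higher over all genes. Stard4, a sterol carrier and SREBP target, changed by -0.51 (SE 0.05) against ENR. Npc1l1, the enterocyte's importer of luminal cholesterol, fell from 24.4, 28.7 and 23.1 CPM in ENR to 8.23, 6.56 and 5.90 CPM in Hyper (-1.88, SE 0.13). These are sums over all kept cells, of which enterocytes were on average 11.8% in ENR and 0.985% in Hyper. The part of class shares in the changes of this list was not tested. Scarb1, a lipoprotein receptor, rose from 11.2, 10.2 and 7.15 CPM to 30.5, 34.1 and 27.7 CPM (1.69, SE 0.19). The -VE libraries were in between for Npc1l1, at 16.7 and 17.7 CPM, and overlapped Hyper for Scarb1, at 21.4 and 30.5 CPM. Insig2, the paralog of Insig1, rose by 0.48 (SE 0.07) where Insig1 fell.

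Of 10 genes of sterol efflux and esterification, 2 rose and 2 fell against ENR, all 4 by at least 2-fold, beside 56.8% of all genes that passed and 22.9% that were also at least 2-fold apart. Mylip, a sterol-regulated ubiquitin ligase, rose from 0.445, 0.359 and 0.490 CPM in ENR to 3.45, 4.09 and 4.82 CPM in Hyper (3.26, SE 0.29, adjusted p = 4.42e-05 in edgeR). Against -VE, whose libraries were at 0.436 and 0.207 CPM, it rose by 3.70 (SE 0.35). Ch25h, a cholesterol hydroxylase, also rose (2.45, SE 0.41) but stayed under 1 CPM in every library. Nr1h3, which codes for the sterol receptor LXRα, changed by -1.44 (SE 0.08), and Soat2, which esterifies cholesterol in enterocytes, by -1.01 (SE 0.14). Values in this paragraph are also over all kept cells, and the part of class shares in them was not tested. Of 13 genes of fatty acid synthesis, a related branch under the factor's relative Srebf1, 3 fell and 2 rose. Fasn changed by -0.87 (SE 0.16), Acss2 by -0.52 (SE 0.11) and Acaca by -0.41 (SE 0.10), whereas Acacb rose by 1.34 (SE 0.47) and Elovl5 by 0.70 (SE 0.06). Acacb was at 1.70, 0.994 and 1.48 CPM in ENR and 6.08, 2.21 and 2.24 CPM in Hyper, where replicate 1 stood apart.

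The members were not equally expressed across classes. The classes were clustered on these counts, so class against class is a description without a test, and the values are plain CPM of a class in 1 library with at least 30 of its cells. In ENR-organoids the 8 members summed to 940 ± 77.5 CPM in stem cells and 1209 ± 75.9 CPM in transit-amplifying (TA) cells (SD, n = 3 libraries here and below). They summed to 1358 ± 99.5 CPM in enterocyte progenitors, 1587 ± 118 CPM in goblet cells, 1634 ± 74.5 CPM in enterocytes and 1818 ± 323 CPM in enteroendocrine cells. Paneth cells were the lowest at 846 ± 43.0 CPM, with libraries that overlapped those of stem cells. The libraries of enterocytes, goblet and enteroendocrine cells overlapped one another, whereas stem and TA cells did not overlap. The order of the last classes depends on the scale. With TMM factors over all class sums, Paneth cells were at 1551 CPM, above stem cells at 920 CPM, and enteroendocrine cells at 1308 CPM, below goblet cells (1648 CPM) and enterocytes (1899 CPM). Stem cells were below TA cells, enterocyte progenitors, enterocytes and goblet cells on both scales.

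Single members differed in how far they followed this order. In enteroendocrine cells Hmgcs1 (635 CPM) and Insig1 (352 CPM) were the largest parts of the plain-CPM sum. The same cells ranked 5 among the classes for Idi1 (236 CPM) and Dhcr7 (87.9 CPM). Sqle was at 82.6 CPM in Paneth and 97.6 CPM in stem cells. In the other classes it went from 140 CPM in goblet to 155 CPM in enteroendocrine cells. On plain CPM, Hmgcs1 differed by 3.17-fold between its highest and lowest class, from 200 ± 11.7 CPM in stem cells to 431 ± 38.9 CPM in enterocytes, 504 ± 21.7 CPM in goblet cells and 635 ± 121 CPM in enteroendocrine cells. With TMM factors it was at 196 CPM in stem cells and 456 CPM in enteroendocrine cells, and highest in Paneth cells at 548 CPM. Insig1 was at 137 ± 4.60 CPM in stem cells, 174 ± 6.09 CPM in TA cells and 332 CPM (322 to 344) in enterocytes, and none of these 3 overlapped. Lss was at 44.1 ± 8.94 CPM in stem cells and 92.4 ± 12.9 CPM in goblet cells. On plain CPM, Idi1 outside Paneth cells went from 234 ± 33.0 CPM in stem cells to 284 ± 26.3 CPM in enterocytes, and every neighbouring pair among those 6 classes overlapped. Dhcr7 outside Paneth cells went from 74.4 ± 6.63 CPM in stem cells to 101 ± 3.62 CPM in goblet cells. The low place of Paneth cells, at 124 CPM for Idi1 and 39.3 CPM for Dhcr7, depends on the scale, since with TMM factors they were at 226 and 72.0 CPM, beside 229 and 72.8 CPM in stem cells, and enteroendocrine cells were lowest at 169 and 63.5 CPM. In the few Hyper enterocytes that could be summed (58 cells of replicate 2), the members reached 2017 CPM, the highest among the enterocyte libraries.

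**Figure D3:**
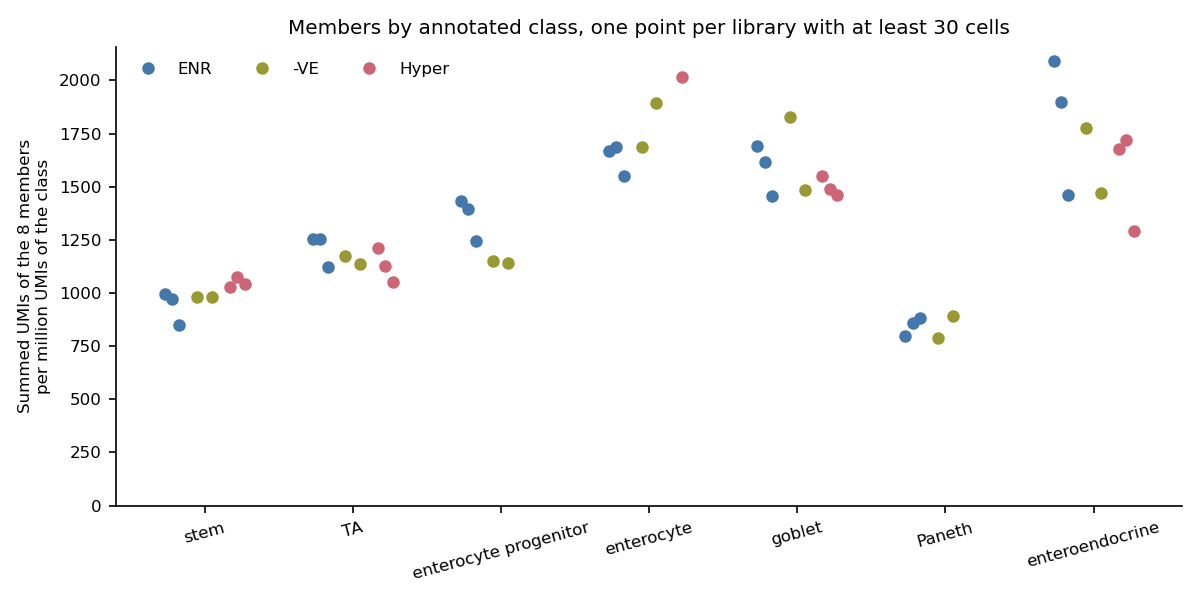
Summed UMIs of the 8 members as CPM of each annotated class, 1 point per library with at least 30 cells of the class, coloured by medium, on a linear axis from 0. On this scale the stem points lie at 851 to 1074 CPM, Paneth points start at 788 CPM, the TA points of Hyper, at 1050 to 1211 CPM, overlap its stem points, and the enterocyte, goblet and enteroendocrine points lie at 1293 CPM or above.

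The deposited annotation gives the class of an organoid cell but not its cluster, and in the study's clustering the stem and the TA cells of Hyper-organoids were largely separated from those of ENR-organoids. Cells compared within either class therefore share a class name but may differ in cluster, and the part of this separation in the values below was not tested. Within the stem class fewer members passed than over all cells. Of the 8 members, 1 fell and 1 rose in Hyper- against ENR-organoids (49.5% of 13920 genes tested passed, 23.4% as lower and 26.1% as higher), and the median change was 0.08. Idi1 was at 260, 253 and 208 CPM in ENR stem cells and 204, 196 and 192 CPM in Hyper stem cells (TMM within the class), and it changed by -0.29 (SE 0.08, adjusted p = 0.0159 in edgeR). Dhcr7 was at 79.6, 79.3 and 70.9 CPM in ENR and 105, 101 and 88.2 CPM in Hyper, and it rose by 0.35 (SE 0.08, adjusted p = 0.00493 in edgeR). The groups did not overlap for either gene. Sqle (0.11, SE 0.07), Fdft1 (0.02, SE 0.08), Insig1 (0.04, SE 0.06) and Srebf2 (-0.02, SE 0.06), which had fallen over all cells, did not pass. Srebf2, for example, was at 66.2, 64.3 and 64.5 CPM in ENR stem cells and 65.0, 65.0 and 62.6 CPM in Hyper stem cells. Hmgcs1 was higher in the Hyper mean (0.24, SE 0.10) but missed the threshold (adjusted p = 0.0597 in edgeR). Without ENR replicate 1, ENR replicate 2 or Hyper replicate 2, the Idi1 call was lost (adjusted p = 0.0891, 0.0884 and 0.0566 in edgeR) and 1 member passed in the stem class, and without Hyper replicate 1, 4 did.

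Against -VE stem cells, Idi1 fell (-0.41, SE 0.09, adjusted p = 0.00490 in edgeR), Srebf2 fell slightly (-0.17, SE 0.06, adjusted p = 0.0467) and Hmgcs1 rose (0.32, SE 0.11, adjusted p = 0.0367), where 44.0% of genes tested passed, 20.3% as lower and 23.7% as higher. When culture series was a block, Srebf2 (adjusted p = 0.0590) and Hmgcs1 (adjusted p = 0.0563) were lost and Dhcr7 was gained as higher (0.27, adjusted p = 0.00436). The Srebf2 call was also lost with DESeq2's size factors in edgeR (adjusted p = 0.103), with DESeq2 (0.132), without the filter on low counts (0.221) and without any 1 library, and the Hmgcs1 call without either -VE library, ENR replicate 2, Hyper replicate 2 or Hyper replicate 3. With each of these 5 libraries except Hyper replicate 3 left out, 1 member passed.

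In the TA class most of the members that fell over all cells fell as well. Against ENR 5 members fell, Sqle, Idi1, Fdft1, Insig1 and Srebf2 (55.8% of 14553 genes tested passed, 26.6% as lower and 29.2% as higher). Sqle was at 147, 151 and 148 CPM in ENR TA cells and 126, 126 and 119 CPM in Hyper TA cells, with a change of -0.27 (SE 0.04, adjusted p = 0.00106 in edgeR). Idi1 changed by -0.45 (SE 0.10), Fdft1 by -0.27 (SE 0.06), Insig1 by -0.26 (SE 0.09) and Srebf2 by -0.26 (SE 0.06). The Insig1 call was lost without any 1 of the ENR libraries, Hyper replicate 2 or Hyper replicate 3 (adjusted p from 0.0699 to 0.114). Hmgcs1 was level (-0.03, SE 0.05), and Dhcr7 was at 0.12 (SE 0.10). Against -VE TA cells, Sqle, Idi1, Fdft1 and Srebf2 fell and Hmgcs1 rose (0.17, SE 0.06, adjusted p = 0.0468 in edgeR), where 47.3% of genes tested passed, 21.9% as lower and 25.4% as higher. The Hmgcs1 call was lost without ENR replicate 1 or 2, -VE replicate 2 or any 1 Hyper library, and without the filter on low counts (adjusted p = 0.0582). Without -VE replicate 2, which also lost Srebf2 (-0.19, adjusted p = 0.102), 3 members passed.

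In goblet cells, Idi1 fell (-0.40, SE 0.11, adjusted p = 0.0163 in edgeR) and Dhcr7 rose (0.40, SE 0.09, adjusted p = 0.00632) against ENR, where 31.0% of 11714 genes tested passed, 12.8% as lower and 18.3% as higher. When culture series was a block, 4 members passed, with Hmgcs1 (-0.22, adjusted p = 0.0385) and Insig1 (-0.32, adjusted p = 0.0128) added as lower. The Idi1 call was lost without ENR replicate 1, ENR replicate 2, Hyper replicate 2 or Hyper replicate 3, which left 1 member. Against -VE goblet cells, Idi1 fell (-0.50, SE 0.12), with 20.4% of genes past the threshold, 7.09% as lower and 13.3% as higher, and the call was lost without -VE replicate 1 (adjusted p = 0.149), where 1 other member passed instead. In enteroendocrine cells, Dhcr7 rose (0.79, SE 0.16, adjusted p = 0.00798 in edgeR) and Insig1 fell (-0.47, SE 0.14, adjusted p = 0.0470) against ENR, where 14.0% of 11050 genes tested passed, 5.28% as lower and 8.70% as higher. Dhcr7 was at 78.6, 96.5 and 80.1 CPM in ENR enteroendocrine cells, 152 and 124 CPM in -VE and 162, 162 and 117 CPM in Hyper. The Insig1 call was lost, leaving 1 member, without any 1 of ENR replicates 1 to 3 or of Hyper replicates 2 and 3. Against -VE enteroendocrine cells 0 members passed in edgeR, 0 had an unadjusted p under 0.05 and 0 passed in DESeq2. In this comparison 5.10% of genes passed in edgeR and 421 of 11050 in DESeq2. The enterocyte class could be compared between -VE and ENR alone, since 1 Hyper library held at least 30 enterocytes. Between -VE and ENR, 0 members passed in edgeR in any of the 5 classes. The members with an unadjusted p under 0.05 numbered 1 in stem, 1 in TA, 0 in goblet, 2 in enteroendocrine and 1 in enterocyte cells. Of all genes tested, 1.54%, 3.14%, 2.23%, 0.199% and 10.7% passed in these classes.

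**Figure D4:**
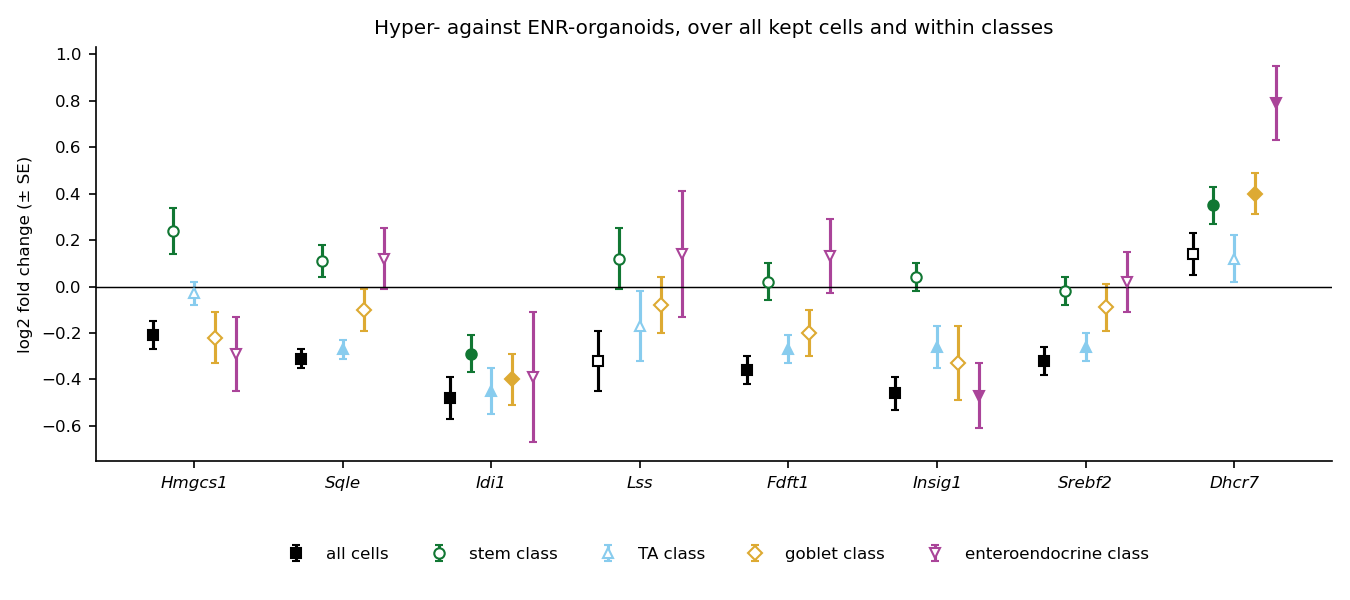
Log2 fold change with SE of each member, Hyper against ENR, over all kept cells and within the stem, TA, goblet and enteroendocrine classes. Filled symbols passed the threshold and open ones did not. For Sqle, Fdft1, Insig1 and Srebf2 the stem symbol lies near 0 (-0.02 to 0.11) and the TA symbol between -0.27 and -0.26, while Idi1 lies below 0 and Dhcr7 above 0 in all 4 classes.

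Whether the Hyper- against ENR-organoid change differed between stem cells and another class was tested gene by gene, with limma on the difference of log2 CPM between classes of the same library. Against TA cells, all 8 members had the higher change in stem cells (median 0.28), and Sqle (0.39, SE 0.08, adjusted p = 0.0440) and Srebf2 (0.25, SE 0.04, adjusted p = 0.0400) passed, where 6.80% of 13024 genes did. The other 6 had differences from 0.18 to 0.34 and adjusted p-values from 0.0773 to 0.176. When culture series was a block, 0 of 13024 genes passed, so the loss of both calls there is not particular to these members. The blocked adjusted p was 0.158 for Sqle and 0.146 for Srebf2. Both calls were also lost without the filter on low counts (0.0631 and 0.0585) and without any 1 of the 6 libraries. With 1 library left out the differences lay between 0.34 and 0.46 for Sqle and between 0.22 and 0.27 for Srebf2. Against goblet cells 0 members passed in limma and 3 had an unadjusted p under 0.05, where 7.61% of genes passed. Against enteroendocrine cells 0 passed and 3 had an unadjusted p under 0.05, where 11.2% passed.

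After each cell was thinned to 10000 UMIs, which left out 1028 of 22139 organoid cells, the median cell held 11 to 12 UMIs of the 8 genes in ENR, 11 in both -VE libraries and 9.50 to 11 in Hyper. At most 0.374% of cells in a library held 0 member UMIs. By gene, Hmgcs1 was detected in 84.4% to 89.4% of thinned cells (95.1% to 97.6% unthinned) and Lss in 33.8% to 46.9% (71.5% to 85.4% unthinned). The share that free RNA would give was not estimated, so these are shares of cells with a UMI and not of cells that express the gene.

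Over the 48 sums per class and library, with log2 CPM centred within each library, the genes whose pattern was most like the mean of the members included Msmo1 (Pearson r = 0.974), Fdps (0.948), Nkiras2 (0.912), Sirt7 (0.910), Bcar1 (0.902), Mapk3 (0.901), Cmas (0.894), Cast (0.893) and Sra1 (0.885), out of 7995 genes of at least 10 CPM. Msmo1 and Fdps are enzymes of the pathway. Hsd17b7 ranked 16. Of the 15 other cholesterol synthesis enzymes, 4 were among the first 100 genes and 11 were not. Sums of one library share its depth, and sums of one class share its composition, so the coefficients describe likeness and no more. With TMM factors over the class sums, 2 of the first 10 genes stayed among the first 10.

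In the colon the members were lower after DSS. All 8 had a lower CPM in the DSS than in the normal library, and their sum was 1061 CPM (95% exact Poisson interval 1047 to 1076) in normal crypts and 594 CPM (585 to 602) after DSS. With 1 library per condition this compares 2 libraries, has no test, and the intervals cover counting error only. On the log2(CPM + 1) scale 6 of the 8 were at least 1.5-fold lower, where 4.30% of the 7712 genes with a mean of at least 10 CPM were, and the median log2 ratio was -0.84 for the members and -0.00 for all of these genes. Sqle was at 133 CPM (128 to 138) in normal crypts and 61.6 CPM (58.9 to 64.4) after DSS, a log2 ratio of -1.10. Hmgcs1 was at 331 CPM (323 to 339) and 156 CPM (151 to 160), a ratio of -1.08. Idi1 (-0.89), Lss (-0.87), Insig1 (-0.80) and Fdft1 (-0.61) followed. Srebf2 was at 108 and 79.7 CPM (-0.44) and Dhcr7 at 74.1 and 55.0 CPM (-0.42), the smallest ratios. Of the other enzymes, 14 of 15 reached 10 CPM, 5 of these were at least 1.5-fold lower, and their median was -0.51. Among them Cyp51 (-0.90) and Msmo1 (-0.84) were lowest, and Ebp was nearly level at -0.05.

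The DSS library held more RNA of leukocytes. The 8 leukocyte markers summed to 232 CPM in normal crypts and 1321 CPM after DSS, mostly through S100a8, a neutrophil gene (0 and 852 CPM), while Ptprc, the pan-leukocyte marker, was at 27.2 and 29.0 CPM, and their part in the members' ratios was not tested beyond the value without leukocyte clusters given next. The 7 stromal markers summed to 23 and 60.7 CPM, and the epithelial markers to 9416 and 8387 CPM. Without the 6 of 25 clusters in which over 50% of cells held a Ptprc UMI, the members summed to 1093 CPM in normal crypts and 617 CPM after DSS (log2 ratio -0.82).

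Cluster by cluster the difference was uneven. Of 25 annotated colonic clusters, 7 held at least 30 cells in both libraries, and the summed members were lower after DSS in all 7, with log2 ratios from -1.41 to -0.06. In cluster 1 the sum went from 947 CPM (908 to 986) to 356 CPM, in cluster 6 from 1177 CPM (1122 to 1233) to 507 CPM, and in cluster 2, the one labelled stem, from 560 CPM (530 to 590) to 287 CPM. In cluster 13 it was 983 and 851 CPM, and in cluster 5 it was 826 CPM (783 to 870) and 794 CPM, with intervals that overlapped. The leukocyte clusters 0 and 11 were low in both libraries, at 277 to 338 CPM. Idi1 and Insig1 were lower after DSS in 7 of 7 clusters, Dhcr7 in 6, Hmgcs1, Sqle and Lss in 5, Fdft1 in 4 and Srebf2 in 3, where its median log2 ratio was 0.0. Clusters 0 and 11 enter these counts with few UMIs. In normal and DSS cells, Sqle had 8 and 11 UMIs in cluster 0 and 1 and 2 in cluster 11. Lss had 4 and 1 in cluster 0 and 1 and 3 in cluster 11. The share of all genes lower by cluster is not given. In cluster 1, Idi1 went from 152 to 41.7 CPM, Sqle from 100 to 32.8 CPM and Hmgcs1 from 280 to 89.7 CPM. Several clusters came almost wholly from 1 library. The highest sums were in clusters 3 (1468 CPM, 274 normal and 1 DSS cell) and 14 (1326 CPM, 77 normal and 1 DSS cell), whereas clusters 4, 7, 9 and 10, almost wholly from DSS, were at 712, 820, 802 and 785 CPM. Other clusters did not follow this order, with the largely normal clusters 12 and 19 at 622 and 851 CPM and cluster 20, from DSS alone, at 1092 CPM. Such clusters give no comparison within a cluster. After thinning to 10000 UMIs, which left out 1298 of 3065 colonic cells, the median cell held 10.0 member UMIs in normal crypts and 5.00 after DSS, and 1.04% and 6.04% of cells held none.

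**Figure D5:**
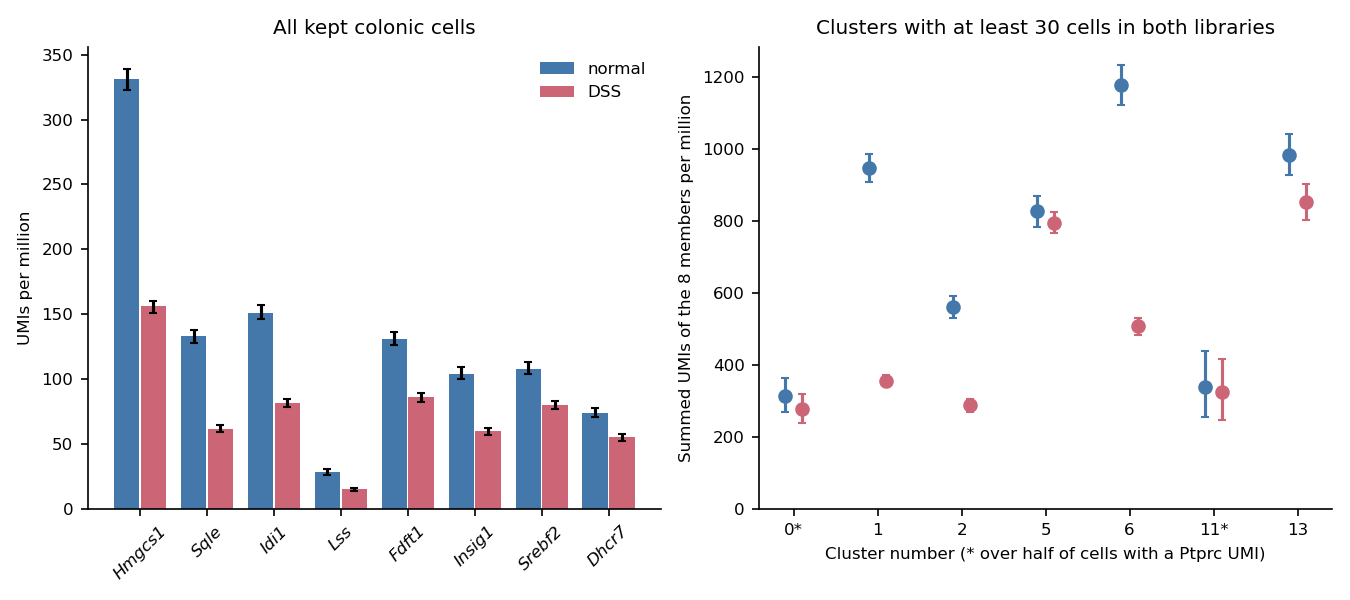
Left, CPM of each member over all kept cells of the normal and the DSS colonic library, with 95% exact Poisson intervals. Right, summed members in the 7 clusters with at least 30 cells in both libraries, where clusters 1, 2 and 6 differ most and clusters 0, 5 and 11 have intervals that overlap.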

How the data were processed

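Droplet libraries were counted by the authors with Cell Ranger 3.0.0, per the submitters' processing notes and the methods, and the file headers name another version. Reads were aligned to mm10. The deposited values are raw UMI counts per gene and barcode, not normalized, and a deposited annotation gives the class of 25204 kept cells. The methods state a filter of 1500 genes and 25% mitochondrial reads, but kept cells had as few as 501 genes and at most 20.0% mitochondrial UMIs, and 23829 met the stated filter. Over 201632 entries of the members, the merged table and the library matrices differed in 0. Doublets were not called here and stayed in. Columns of samples outside the series numbered 0.

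UMIs were summed per library, or per class and library with at least 30 cells. One edgeR 4.0.16 fit (R 4.3.3) held all 8 libraries of organoids, with TMM factors, filterByExpr, glmQLFit and glmQLFTest, and p-values were Benjamini-Hochberg adjusted over all genes tested. SEs are the log2 change over the square root of F. Differences between classes used limma 3.58.1 with a prior count of 2, and DESeq2 1.42.0 was an alternative. Scripts were tested on simulated data. Colonic ratios use a pseudocount of 1 CPM. The members and gene lists were chosen with earlier results of these data known. Genes named were the members, up to 12 members of each list past the threshold, and the 10 most alike in pattern over classes, and some genes of the lists are not reported here.

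Culture series, read from the prefix of the library names, pair the samples: deviations of ENR and Hyper libraries from their group means correlated at 0.19, 0.17 and 0.44 in series 2, 6 and C across 16037 genes. The alternatives were other size factors, total counts, no filter, DESeq2, each library left out, the series as a block, only the groups compared, all barcodes, the stated filter, thinning to 10000 UMIs and a minimum fold of 2. TMM factors over class sums were added after seeing the data. Promoters are from RefSeq, and Sqle and Fdft1 were not looked up elsewhere.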

Additional observations from a re-analysis of the deposited data

Results flagged for a closer look

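The change of 2 members between Hyper- and ENR-organoids differed between stem and TA cells by a test of the difference itself (limma, over 3 libraries of each medium), a test that 6.80% of 13024 genes passed. For Sqle the log2 change was 0.39 higher in stem than in TA cells (SE 0.08, adjusted p = 0.0440), and for Srebf2 it was 0.25 higher (SE 0.04, adjusted p = 0.0400). Both calls were lost when culture series was a block, where 0 of 13024 genes passed. They were also lost without the filter on low counts (adjusted p = 0.0631 and 0.0585) and when any 1 library was left out. Each class was summed and scaled on its own in each library, so the share of a class does not enter the difference directly. Cells of one class may differ in cluster between the media, and the part of this in the differences was not tested.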

How the results depend on the processing

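Counts below are of genes past the threshold. A minimum fold of 2 in addition left 0 members and 0 other enzymes in every comparison over all cells and 0 members in the stem, TA, goblet and enteroendocrine classes. With total counts only, Hyper against -VE had 1 member and 7 other enzymes, and Insig1 turned to 0.01. The calls over all genes against -VE were then 4996 higher and 1740 lower, beside 4011 and 3618. For -VE against ENR the members numbered 2 with DESeq2, with only the groups compared and with all barcodes. The other enzymes numbered 1 with total counts, 3 with DESeq2, 2 with the replicate block, 1 with only the groups compared and 5 with all barcodes. Of 16037 genes tested, 1264 passed in the main fit, 1142 with total counts, 2233 with DESeq2 and 1687 with the replicate block. The shares over all genes with only the groups compared and with all barcodes are not given. With total counts the calls over all genes against ENR were 5704 higher and 2749 lower, beside 4734 and 4377. The culture series as replicate block gave 4 goblet members against ENR, where 4135 of 11714 genes passed. It gave 0 members in the stem against TA difference, where 0 of 13024 genes passed, and it turned Idi1 in -VE against ENR to -0.04. The blocked values that changed a call of a member stand beside the results. Without the filter, 1 enteroendocrine member passed against -VE and 0 members in the stem against TA difference. In the colon the summed log2 ratio of -0.84 became -0.76 with all barcodes and -0.58 with equal weights of shared clusters. With TMM over class sums, an alternative chosen after seeing the data, the log2 ratio to stem in ENR was 1.05 instead of 0.80 for enterocytes and 0.75 instead of -0.15 for Paneth cells.

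With each library left out in turn, members past the threshold numbered 5 to 7 (Hyper against ENR), 1 to 5 (Hyper against -VE) and 0 to 2 (-VE against ENR), and other enzymes 9 to 13, 7 to 12 and 0 to 0. Against ENR they numbered 1 to 4 in stem, 4 to 5 in TA, 1 to 2 in goblet and 1 to 2 in enteroendocrine cells. Against -VE they numbered 1 to 3, 3 to 5, 1 to 1 (not the same gene without -VE replicate 1) and 0 to 0, and the stem against TA difference had 0 to 0. Signs changed for Dhcr7 against -VE (-0.02 to 0.15) and, for -VE against ENR, for Idi1 (-0.06 to 0.08), Lss (-0.10 to 0.03) and Srebf2 (-0.13 to 0.05), none of which had passed. The comparisons rest on 2 or 3 libraries per medium and 1 library per colonic condition.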
